A study of Mus musculus with 2 samples.

Results

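Genes of collagen chains, of the enzymes that modify and fold collagen, of matrix proteases and their inhibitors, and of a few secreted matrix glycoproteins were described in sc-RNA-seq data of mouse bone marrow. They were chosen by symbol alone, by patterns for the Col, Mmp, Timp, P4ha, Plod, Adam, Adamts, Lox and Colgalt families and by name for P4hb, Serpinh1, Fn1, Sparc, Thbs1, Vcan and Tgfbi. The rule took 54 of the 13211 genes listed for either library. Of these, 38 were listed for both libraries, 8 for Col1a1fspKO alone and 8 for WT alone, and a gene missing from a library's table was counted as 0 there. Only 77 of the 12760 genes listed for Col1a1fspKO and 104 of the 12763 listed for WT had UMIs in under 3 cells, so a missing gene may have had a few UMIs, and no ratio is given against a library that does not list it. Sparc was in neither table.

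The Col1a1fspKO library came from Fsp1-Cre;Col1a1flox/flox mice, in which the promoter of S100a4 (Fsp1) drives Cre, and the WT library from Cre-negative;Col1a1flox/flox littermates, so the floxed allele is shared. Each library is 1 pool of 2 mice aged 2 months, whose untreated marrow was flushed out of femur and tibia and sorted for live cells. Flushed marrow holds mostly blood-forming and blood cells, and of 9 stromal cell markers only Cxcl12, Lepr and Pdgfrb were in the tables. With 1 library per genotype nothing could be tested between genotypes, and the 95% intervals given here cover counting error only. Levels are UMIs (unique molecular identifiers, each marking 1 captured mRNA molecule) per 1000000 UMIs of the cells concerned (CPM), and a ratio is the CPM of Col1a1fspKO over that of WT.

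Collagens are trimers whose chains are hydroxylated by prolyl and lysyl hydroxylases (P4ha, P4hb and Plod genes), glycosylated by Colgalt1 and escorted by the chaperone Serpinh1 before secretion, after which lysyl oxidases cross-link the fibrillar types. Matrix metalloproteinases (Mmp), ADAM and ADAMTS proteases cleave matrix or cell surface proteins, and Timp proteins inhibit many of them. In marrow, neutrophils are known for storing Mmp8 and Mmp9, the collagenase and the gelatinase of their granules, while collagen itself is mainly a product of stromal cells and osteoblasts.

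The tables held 1309 cells and 8647722 UMIs for Col1a1fspKO, and 1169 cells and 8624469 UMIs for WT. Of these UMIs the genes described here took 0.101% (8721) in Col1a1fspKO and 0.0929% (8011) in WT. The cells fell into 15 clusters, made without these genes and named by marker genes. In the order Col1a1fspKO and WT, 525 and 438 cells were neutrophil-like, 267 and 276 monocyte-like, 74 and 76 granulocyte-monocyte progenitor-like, 248 and 221 B lineage-like, 85 and 79 erythroid-like, 58 and 31 T or natural killer cell-like, 43 and 30 plasmacytoid dendritic cell-like and 9 and 18 basophil or eosinophil-like. The minimum depth of a cell was 2540 UMIs in Col1a1fspKO but 2909 in WT, and 2 cell barcodes were shared by the libraries. The neutrophil-like cells were made up differently. Cluster 7, with the mature neutrophil gene Retnlg among its leading genes, took 8.94% of the Col1a1fspKO library against 3.59% of WT, while cluster 4, led by the early gene Fcnb, took 7.49% against 11.1%. The median depths of cluster 7 were 3002 and 3277.5 UMIs, near the minimum depths of the libraries. The part of the unlike minimum depths in its shares was not tested. Over the whole library 5 of 10 mature neutrophil markers were at least 1.5-fold higher in Col1a1fspKO, against 3.0% of 9725 genes. Of these 10 markers 0 were lower, against 2.93% of genes. Of 8 preneutrophil markers, 0 were past the limit either way. Other lists were past it as well, with 5 of 9 T or natural killer cell markers higher and 5 of 6 basophil or eosinophil markers lower.

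Promoters are shown for Mmp8 and Adam8, proteases of neutrophil-like cells, and for the inhibitor Timp2, because each was higher in the later neutrophil clusters than in the early cluster 4 in both libraries. The sequences are from RefSeq (GRCm38.p6), which has a promoter for 37 of the 54 genes. The 250 bases before the start were searched on both strands for TTGCNNAA (C/EBP-type), GAGGAAGT (PU.1-type) and TGANTCA (AP-1-type), and for the letters AGATAA, of the type known for GATA factors. Matches are in capitals. The Mmp8 promoter lies at chr9:7558179-7558428 on the plus strand, that of Adam8 at chr7:139992563-139992812 on the minus strand and that of Timp2 at chr11:118355412-118355661 on the minus strand, and all are read 5′ to 3′ along the gene.
Mmp8: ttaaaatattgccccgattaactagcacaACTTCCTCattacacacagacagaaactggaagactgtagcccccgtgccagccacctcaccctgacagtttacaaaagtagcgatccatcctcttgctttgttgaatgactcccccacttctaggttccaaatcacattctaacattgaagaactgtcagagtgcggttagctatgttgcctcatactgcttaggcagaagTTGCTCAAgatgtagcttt
Adam8: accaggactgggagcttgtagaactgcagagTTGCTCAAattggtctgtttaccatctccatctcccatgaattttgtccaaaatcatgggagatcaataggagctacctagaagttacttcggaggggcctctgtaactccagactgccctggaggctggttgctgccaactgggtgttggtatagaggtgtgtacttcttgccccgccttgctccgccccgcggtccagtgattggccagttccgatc
Timp2: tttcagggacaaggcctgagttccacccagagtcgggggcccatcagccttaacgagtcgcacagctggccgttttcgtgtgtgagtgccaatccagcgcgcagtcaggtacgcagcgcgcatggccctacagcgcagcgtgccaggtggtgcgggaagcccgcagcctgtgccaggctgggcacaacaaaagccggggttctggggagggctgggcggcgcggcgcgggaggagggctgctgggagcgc
Mmp8 held the C/EBP-type letters as TTGCTCAA from base -19 to -12 before the start and, from -221 to -214, the PU.1-type letters on the other strand. Adam8 held the same TTGCTCAA from -219 to -212. The Timp2 window held none of the motifs. The C/EBP-type letters were in 9.56% of the 32851 promoters of the table, the PU.1-type letters in 2.44%, the AP-1-type letters in 6.75% and AGATAA in 9.99%. Of the 37 genes described here that have a promoter, 5 held the C/EBP-type letters, 1 the PU.1-type, 2 the AP-1-type and 3 AGATAA. These 37 genes have 41 promoters and are counted by gene, whereas the shares above are by promoter, so the numbers are not directly comparable. A match describes the letters and is not a binding site.

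Over all cells, 22 of the 54 genes had at least 50 UMIs over both libraries, the minimum set for a comparison, and the other 32 had between 2 and 44. Of the 22, 3 were at least 1.5-fold higher in Col1a1fspKO, namely Adam8, Adam19 and Timp2, against 3.0% of all 9725 genes with as many UMIs. Adam33 alone was at least 1.5-fold lower, against 2.93% of all genes. The median log2 ratio was -0.04 over the 22 and -0.04 over all genes.

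**Figure D1:**
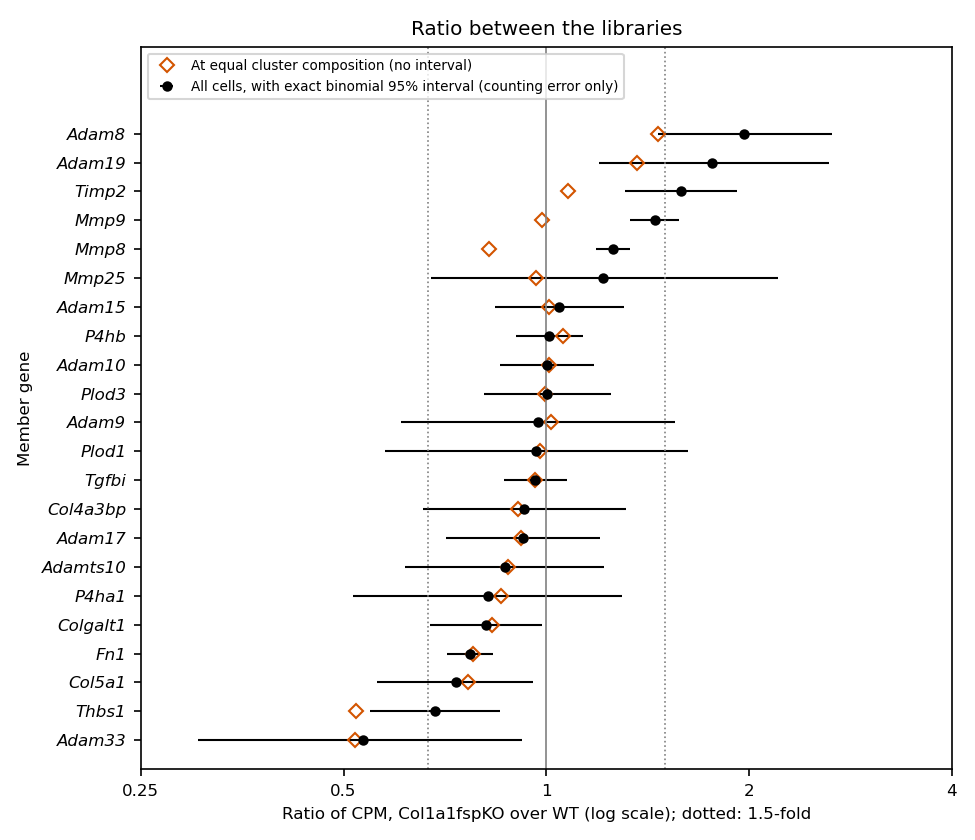
Ratio of CPM (Col1a1fspKO over WT, log axis) for the 22 genes of at least 50 UMIs. Filled points are all cells with exact binomial 95% intervals, and open diamonds the ratio with every cluster given the same weight in both libraries. Timp2, Mmp9 and Mmp8 lie at 1.58, 1.45 and 1.26 over all cells, and at 1.08, 0.985 and 0.821 at equal cluster composition.

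The collagen chains gave few UMIs, and of the 11 only Col5a1 reached the minimum. Col1a1, the targeted gene, gave 3 UMIs in 3 Col1a1fspKO cells and was missing from the WT table. Its counts cannot check the deletion, because 3' tags are read from the end of the transcript, away from the floxed exons. Col1a2, the partner chain of type I collagen, was missing from the Col1a1fspKO table and gave 11 UMIs in 6 WT cells. Of these 11 UMIs, 5 lay in a single WT cell of cluster 4. That cell of 11490 UMIs also held 106 of the 118 UMIs of Cxcl12 in the WT library, 3 of Lepr, 4 of Pdgfrb, 5 of the 12 of Serpinh1, 2 of Col27a1 and 1 each of Col4a2 and Col5a1, together with 1464 UMIs of the neutrophil gene S100a8. Cxcl12 and Lepr are known markers of marrow reticular cells. Cxcl12 was missing from the Col1a1fspKO table. Without this cell Col1a2 stood at 6 UMIs in WT.

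Col5a1, a chain of type V collagen, gave 100 UMIs in 40 Col1a1fspKO cells and 136 in 60 WT cells, a ratio of 0.733 (0.561 to 0.956). It was concentrated in erythroid-like cells at 73.6 CPM (57.4 to 93.0) in Col1a1fspKO against 92.4 (73.8 to 114) in WT, and reached 9 and 13 UMIs in a single cell. In progenitor-like cells it stood at 31.8 and 38 CPM, from 6 and 14 cells. Neutrophil-like cells gave 1 and 8 UMIs. After each cell was thinned to 2500 UMIs, 18.8% (11.2 to 28.8) of erythroid-like cells held a UMI in Col1a1fspKO against 15.2% (8.10 to 25) in WT. The thinned shares of neutrophil-like cells were 0% and 0.457%. Unthinned, 37.6% and 46.8% of erythroid-like cells held one, at median depths of 9220.0 and 11118 UMIs. The order of the libraries thus differed between thinned and unthinned cells, and the interval of the erythroid-like ratio, 0.797 (0.573 to 1.11), includes 1.

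**Figure D2:**
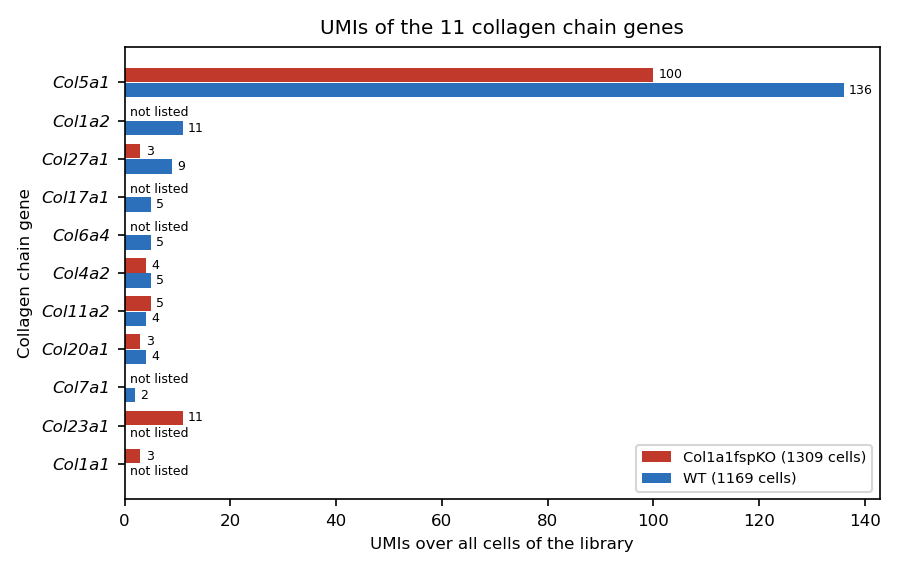
UMIs of each of the 11 collagen chain genes over all cells, 1309 in Col1a1fspKO and 1169 in WT. Bars for Col5a1 reach 100 and 136, and the other 10 chains have at most 11 UMIs in a library or are not listed for it.

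The remaining chains were spread over few cells. Col23a1, a membrane collagen, gave 11 UMIs in 10 Col1a1fspKO cells, 5 of them plasmacytoid dendritic cell-like, and was missing from the WT table. Col17a1, another membrane collagen, was listed for WT alone with 5 UMIs, each in a plasmacytoid dendritic cell-like cell. In the order Col1a1fspKO and WT, Col27a1 gave 3 and 9 UMIs, Col4a2 4 and 5, Col11a2 5 and 4 and Col20a1 3 and 4. Col6a4 with 5 UMIs and Col7a1 with 2 were listed for WT alone. Leaving out Col5a1, 28 Col1a1fspKO cells and 35 WT cells held any collagen chain UMI. The WT cell with Cxcl12 was the only 1 of these to hold 2 or more of the chains.

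Among the enzymes that modify collagen, none of the 5 that could be compared passed the 1.5-fold limit over all cells. Few genes of any kind did, at the shares of all genes given above, so this count does not set these enzymes apart. Within lineages Colgalt1 was past the limit on the lower side in monocyte-like and progenitor-like cells, as described below. P4hb, a protein disulfide isomerase and subunit of prolyl 4-hydroxylase, stood at 70.3 and 69.6 CPM in Col1a1fspKO and WT, a ratio of 1.01 (0.901 to 1.13). Plod3, a lysyl hydroxylase and glycosyltransferase, stood at 19.9 and 19.8 CPM, a ratio of 1.0 (0.807 to 1.25), and was highest in monocyte-like cells at 58.5 (48.3 to 70.2) and 57.6 CPM (47.3 to 69.3). Plod1 gave 32 and 33 UMIs and P4ha1, the catalytic subunit, 37 and 45. Colgalt1, which adds galactose to hydroxylysine, gave 201 and 246 UMIs, a ratio of 0.815 (0.673 to 0.986). Its highest level was in plasmacytoid dendritic cell-like cells at 139 (92.7 to 202) and 83.3 CPM (41.6 to 149), where the intervals of the libraries overlapped. Serpinh1 gave 10 and 12 UMIs, 8 and 7 of them in plasmacytoid dendritic cell-like cells. Plod2 was listed for WT alone with 4 UMIs. Of the lysyl oxidases, Loxl2 gave 9 and 3 UMIs and Loxl3 was listed for WT alone with 3.

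Partners of these enzymes were read from a list of 28 genes for collagen folding and secretion. 16 of them were in the tables and 11 could be compared over all cells. Of the 11, 0 were 1.5-fold higher or lower, against the same small shares of all genes, and the median log2 ratio was 0.02. The prolyl isomerase Ppib stood at 227 and 219 CPM, the chaperone Hspa5 at 85.8 and 77.0 and the isomerase Pdia3 at 114 and 118. The others compared were Crtap, Sec23a, Sec24d, Mia3, Sec13, Tmem38b, Mbtps2 and Kdelr2, while P3h1, P3h3, P3h4, Creb3l1 and Bmp1 gave under 50 UMIs.

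**Figure D3:**
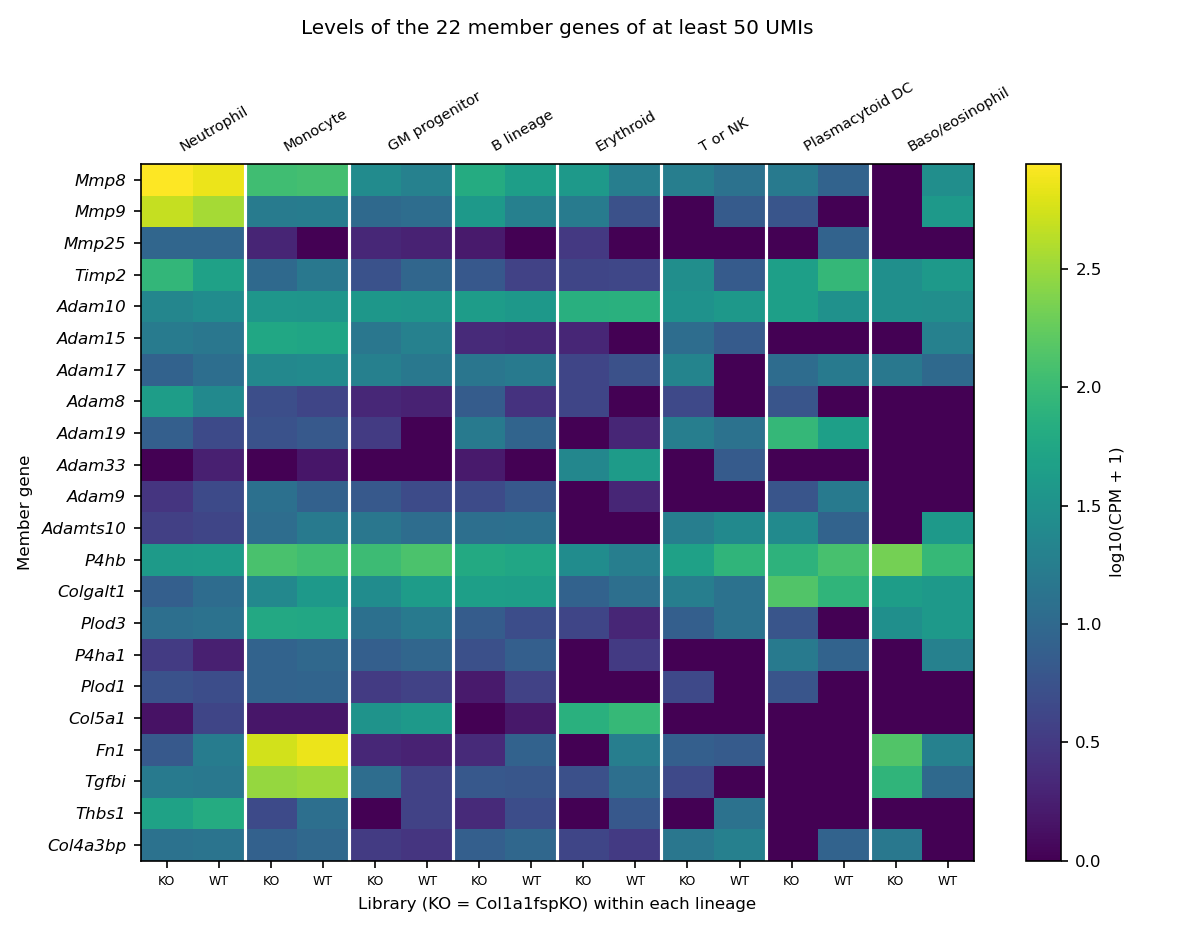
Level of the 22 genes of at least 50 UMIs as log10(CPM + 1) in each lineage, named by markers, and each library (KO is Col1a1fspKO). The brightest cells are Mmp8 and Mmp9 in neutrophil-like cells and Fn1 and Tgfbi in monocyte-like cells, in both libraries.

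Mmp8, Mmp9, Mmp25, Adam8 and Thbs1, 5 of the 22, were highest in neutrophil-like cells in both libraries, where 4.20% of all genes were. Fn1, Tgfbi, Plod1, Plod3, Adam15 and Adam17, 6 of the 22, were highest in monocyte-like cells in both, where 5.34% of all genes were. Adam10, Adam33 and Col5a1, 3 of the 22, led in erythroid-like cells in both, where 7.01% of all genes did. Adam19 and Colgalt1, 2 of the 22 (9.09%), led in plasmacytoid dendritic cell-like cells in both. This is near the 8.74% of all genes that led there. For the other 6 the highest lineage differed between the libraries.

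Mmp8, the neutrophil collagenase, gave 2721 and 2160 UMIs in Col1a1fspKO and WT over all cells, a ratio of 1.26 (1.19 to 1.33), and stood in neutrophil-like cells at 879.7 (844 to 916) and 720.1 CPM (687 to 754). Within the later neutrophil clusters, however, it was lower in Col1a1fspKO. In cluster 1, led by Orm1 with the granule genes Lcn2 and Ltf, it stood at 217 CPM (183 to 255) in Col1a1fspKO against 406 (361 to 455) in WT, a ratio of 0.534 (0.434 to 0.654). In cluster 2, led by Ly6g, it stood at 2012 and 2449 CPM, a ratio of 0.821 (0.755 to 0.893). In cluster 7, with Retnlg, it stood at 2469 and 3085 CPM, a ratio of 0.80 (0.715 to 0.897). The early Fcnb-led cluster 4 had 22.9 (14.5 to 34.4) and 34.1 CPM (24.6 to 46.1), which overlap. With each cluster weighted the same in both libraries, the ratio was 0.821, and over 7 other settings 0.817 to 1.0.

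Mmp9, the gelatinase of neutrophil granules, followed the same clusters with smaller gaps between the libraries. Over all cells it gave 1400 and 964 UMIs, a ratio of 1.45 (1.33 to 1.57). Its level went from 23.9 and 34.1 CPM in cluster 4 to 277 and 314 in cluster 1, 979 and 1042 in cluster 2 and 1252 and 1173 in cluster 7. The ratios in clusters 1, 2 and 7 were 0.883 (0.723 to 1.08), 0.939 (0.829 to 1.06) and 1.07 (0.895 to 1.28), and each interval includes 1. At equal cluster composition the ratio was 0.985, and over the 7 other settings 0.951 to 1.16. Among cells of at least 2909 UMIs, the minimum of the WT library, the ratio over all cells was 1.19 for Mmp9 and 1.07 for Mmp8. Cell makeup and depth moved with both ratios, and with 1 library per genotype they cannot be told apart from the genotype. Mmp25, a membrane-bound metalloproteinase of neutrophils, gave 28 and 23 UMIs, of which 22 and 21 were in neutrophil-like cells.

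**Figure D4:**
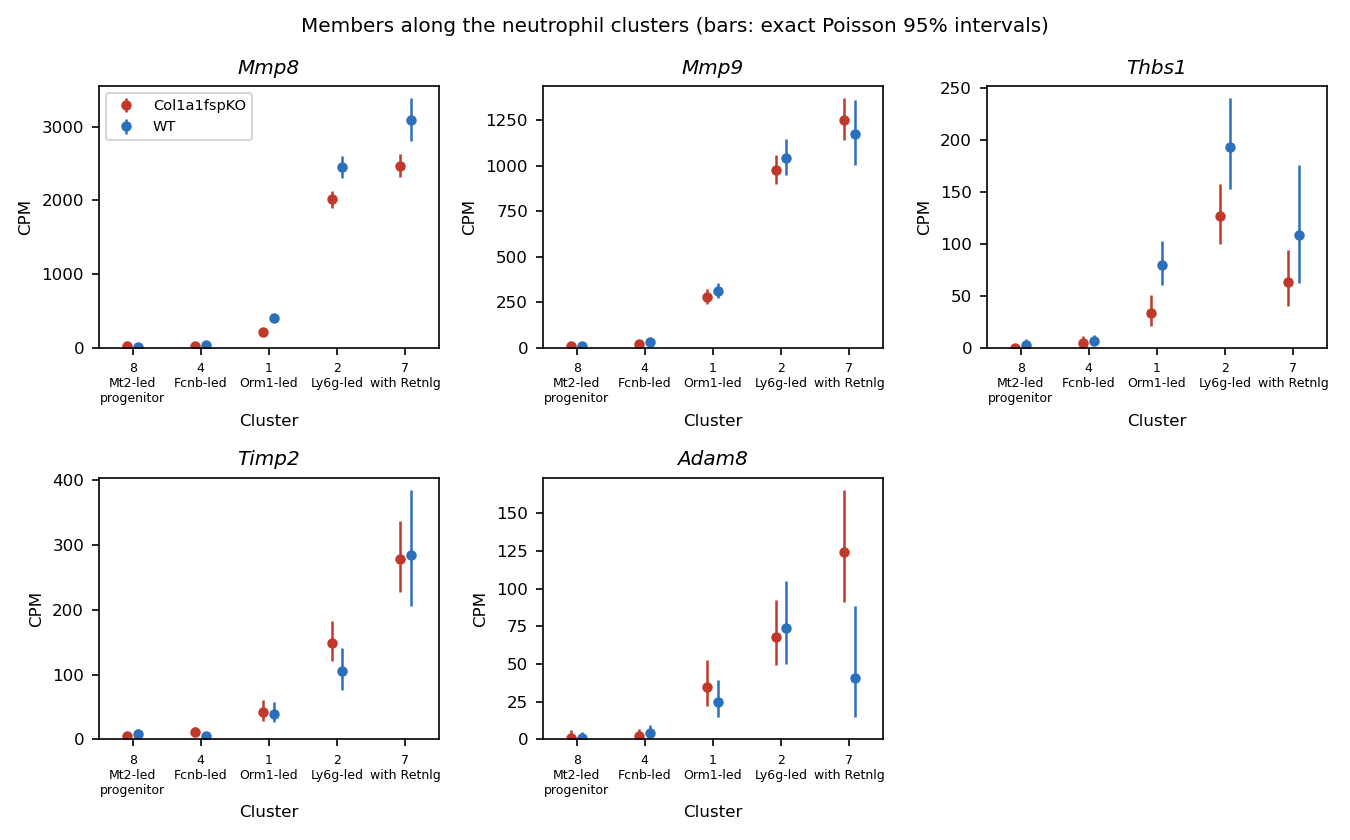
CPM of 5 genes in progenitor cluster 8 and neutrophil clusters 4, 1, 2 and 7 for Col1a1fspKO (red) and WT (blue), with exact Poisson 95% intervals. Mmp8 is lower in Col1a1fspKO in clusters 1, 2 and 7, the intervals of Mmp9 overlap in each cluster, and those of Adam8 are apart in cluster 7, at 124 against 40.7 CPM.

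Thbs1, thrombospondin-1, a secreted glycoprotein that binds matrix, was lower in Col1a1fspKO in the same cells. It gave 138 and 201 UMIs over all cells, a ratio of 0.685 (0.547 to 0.855), just inside the 1.5-fold limit. The ratio was 0.419 (0.244 to 0.695) in cluster 1, from 33.4 and 79.6 CPM, and 0.655 (0.474 to 0.906) in cluster 2, from 127 and 193 CPM. In cluster 7 it gave 24 and 16 UMIs, a ratio of 0.586 (0.298 to 1.18). Monocyte-like cells gave 7 and 21 UMIs, a ratio of 0.327 (0.117 to 0.799). At equal cluster composition the ratio was 0.522, past the limit, and over 7 other settings 0.483 to 0.578.

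Timp2, which inhibits metalloproteinases, went the other way over all cells. It stood at 33.4 and 21.1 CPM, a ratio of 1.58 (1.31 to 1.92), and in neutrophil-like cells at 88.8 (77.8 to 101) and 47.9 CPM (39.7 to 57.2). Its level went up along the clusters in both libraries, from 11 and 4.87 CPM in cluster 4 to 42.5 and 39.8 in cluster 1, 149 and 105 in cluster 2 and 278 and 285 in cluster 7. In cells of at least 2909 UMIs the ratio over all cells was 1.36, under the limit. In cluster 7, where the level was highest, the ratio was 0.976 (0.676 to 1.43). At equal cluster composition it was 1.08, and over 7 other settings 1.07 to 1.27. Plasmacytoid dendritic cell-like cells gave 9 and 12 UMIs. They were the highest lineage of Timp2 in WT, whereas neutrophil-like cells were the highest in Col1a1fspKO. Unthinned, 16.3% of plasmacytoid dendritic cell-like cells held a Timp2 UMI in Col1a1fspKO against 33.3% in WT. After thinning the shares were 11.6% (3.89 to 25.1) and 13.3% (3.76 to 30.7), which overlap. Timp3 was listed for Col1a1fspKO alone with 6 UMIs, 5 of them in progenitor-like cells and 4 of them in 1 cell.

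Adam8, a membrane protease of leukocytes, gave 138 and 70 UMIs in Col1a1fspKO and WT, a ratio of 1.97 (1.46 to 2.66). The gap lay mainly in cluster 7, at 124 CPM (91.4 to 165) in Col1a1fspKO against 40.7 (14.9 to 88.5) in WT, from 47 UMIs in 39 cells and 6 UMIs in 5 cells. In cluster 2 it stood at 68.2 (49.1 to 92.2) and 73.9 CPM (50.2 to 105), and in cluster 1 at 34.9 and 24.7 CPM. At equal cluster composition the ratio was 1.47, under the limit, and over 7 other settings 1.36 to 1.62. In cells of at least 2909 UMIs the ratio over all cells was 1.59.

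In the neutrophil-like cells as a whole, 12 of these genes could be compared. Adam8 and Timp2 were at least 1.5-fold higher, with ratios of 1.81 (1.31 to 2.51) and 1.85 (1.48 to 2.33), where 4.09% of 4963 genes were. Fn1 was lower, where 6.95% of genes were, with 15 and 41 UMIs, a ratio of 0.348 (0.179 to 0.642). Of the WT UMIs of Fn1, 12 were in a single cell. Cluster 2 was the largest of the lineage in Col1a1fspKO with 169 cells, and cluster 1 the largest in WT with 154.

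Fn1, fibronectin, is a secreted glycoprotein that links cells to collagen, and 1101 of its 1131 UMIs in Col1a1fspKO and 1391 of 1465 in WT were in monocyte-like cells. Its level there was 560.3 CPM (528 to 594) in Col1a1fspKO against 721 (684 to 760.2) in WT, a ratio of 0.777 (0.717 to 0.841). It was lower in each of the 3 monocyte clusters. In cluster 9, led by Ass1, it stood at 290.4 (248 to 338) and 372 CPM (321 to 430.4). Cluster 11, led by Klf4, had 568 (500.3 to 642) and 801 CPM (720.1 to 888). Cluster 0, led by Wfdc17, had 718 (665 to 774) and 860.0 CPM (803 to 920.0). S100a4, whose promoter drives the Cre, was among the 10 leading genes of cluster 0, and a link to the level of Fn1 was not tested. The share of monocyte-like cells with an Fn1 UMI after thinning was 70.8% (64.9 to 76.2) in Col1a1fspKO against 68.8% (63.0 to 74.3) in WT, and 83.9% and 83.3% unthinned, so the shares did not differ beyond their intervals. In plasmacytoid dendritic cell-like cells, with median depths of 4500.0 and 4402 UMIs against 5951 and 5798 in monocyte-like cells, 0 of 43 and 0 of 30 cells held one, which allows up to 6.98% and 10.0% at a limit of 3 cells. The ratio at equal cluster composition was 0.778, and 0.763 to 0.789 over 7 other settings.

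Tgfbi, a secreted adhesion protein known to be induced by TGF-beta, was found in the same cells without a shift over them as a whole. In monocyte-like cells it stood at 303 (279 to 329) and 327 CPM (302 to 353), a ratio of 0.928 (0.829 to 1.04). The clusters differed, with a ratio of 1.43 (1.04 to 1.98) in cluster 9, 1.16 (0.867 to 1.56) in cluster 11 and 0.842 (0.734 to 0.965) in cluster 0. In both libraries its level was highest in cluster 0, at 407 and 484 CPM.

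**Figure D5:**
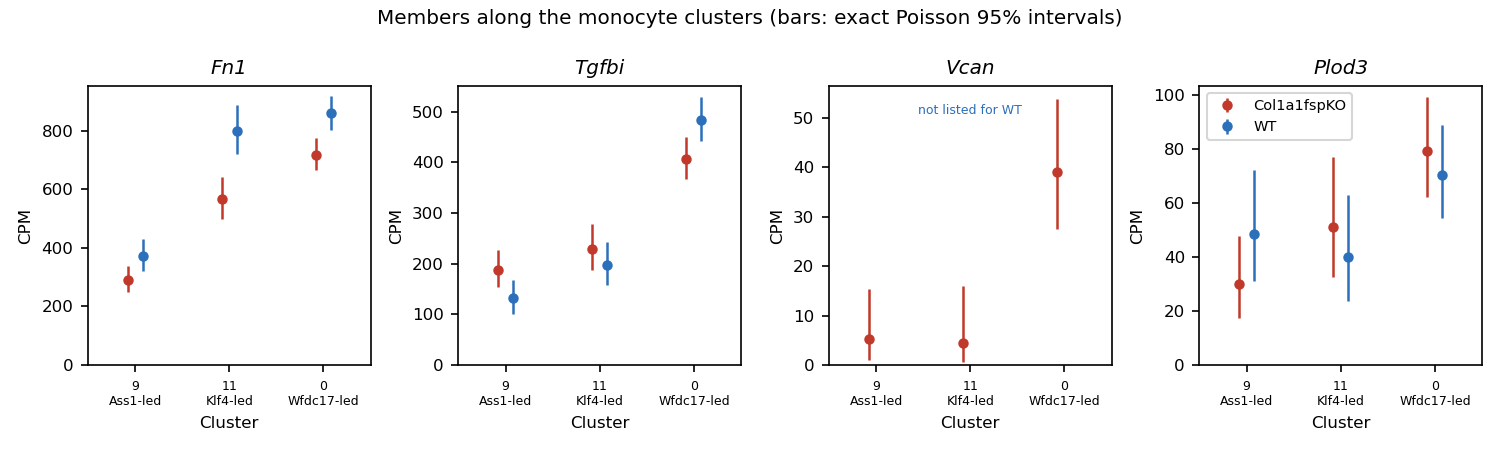
CPM of Fn1, Tgfbi, Vcan and Plod3 in monocyte clusters 9, 11 and 0 for Col1a1fspKO (red) and WT (blue), with exact Poisson 95% intervals. Fn1 is lower in Col1a1fspKO in each cluster, and Vcan, not listed for WT, stands at 39.0 CPM in cluster 0 of Col1a1fspKO.

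Vcan, versican, a large matrix proteoglycan known in monocytes, gave 44 UMIs in 33 Col1a1fspKO cells and was missing from the WT table. Its total was under the minimum of 50. Of all genes, 2 had at least 40 UMIs in Col1a1fspKO and 0 in WT, Vcan and Ifi202b, and 4 had the reverse. Monocyte-like cells held 42 of the UMIs, in 31 of 267 cells and at most 3 in a cell, and 37 of the 42 were in cluster 0, at 39.0 CPM (27.5 to 53.8). After thinning, 5.99% (3.46 to 9.55) of Col1a1fspKO monocyte-like cells held a UMI, and 11.6% unthinned. Plasmacytoid dendritic cell-like cells of Col1a1fspKO held 0 UMIs of Vcan.

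In monocyte-like cells as a whole, 10 of these genes could be compared. Of these, 0 were 1.5-fold higher in Col1a1fspKO, where 3.35% of 5732 genes were, and Colgalt1 was lower, where 3.31% were, at 22.4 (16.3 to 30.1) and 37.3 CPM (29.2 to 47.0), a ratio of 0.60 (0.403 to 0.885). Adam15, a membrane disintegrin, stood at 56.5 and 53.4 CPM there, and Adam17, which sheds TNF, at 22.4 and 24.9, with ratios of 1.06 (0.802 to 1.40) and 0.90 (0.584 to 1.38). Mmp8 gave 214 and 220 UMIs in 107 and 105 monocyte-like cells, a ratio of 0.955 (0.787 to 1.16). The sum of 20 neutrophil markers in these cells was 6303 and 4963 CPM, but the order differed between clusters. In cluster 0, which held 163 and 174 of these Mmp8 UMIs, the sum was 7091 and 7670 CPM. It was 5516 and 2069 CPM in cluster 9 and 5636 and 2226 in cluster 11. The part of the marker sum in the count of Mmp8 was not tested.

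The remaining ADAM proteases led in other cells. Adam10, which sheds Notch and other surface proteins, gave 312 and 310 UMIs, a ratio of 1.0 (0.855 to 1.18), and stood at 71.5 and 73.9 CPM in erythroid-like cells, its highest lineage. In the Fcnb-led cluster 4 it gave 19 and 43 UMIs, a ratio of 0.542 (0.298 to 0.95). Adam33 was found mostly in erythroid-like cells, with 21 of 22 UMIs in Col1a1fspKO and 37 of 41 in WT, at 22.1 (13.7 to 33.8) and 40.2 CPM (28.3 to 55.4). Its ratio over all cells was 0.535 (0.304 to 0.920), and 0.521 at equal cluster composition. Adam19 gave 76 and 43 UMIs, a ratio of 1.76 (1.2 to 2.63), and at equal cluster composition 1.36. It was highest in plasmacytoid dendritic cell-like cells at 89.7 (53.1 to 142) and 45.4 CPM (16.7 to 98.9). Adam9 gave 39 and 40 UMIs and Adamts10 67 and 77.

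In the other lineages few of these genes could be compared. Of 4 in progenitor-like cells, 0 were higher, against 4.11% of genes, and Colgalt1 was past the limit on the lower side, against 4.60%, with a ratio of 0.627 (0.362 to 1.06) whose interval includes 1. Of 5 in B lineage-like cells, Mmp9 was higher, against 3.64% of genes, and 0 lower, against 3.96%. Its 62 UMIs in Col1a1fspKO lay in 20 cells, up to 11 in a cell, and its 32 in WT in 12 cells, up to 8, a ratio of 2.10 (1.35 to 3.32). Of 4 in erythroid-like cells, Mmp8 was higher, against 3.57% of genes, and Adam33 lower, against 5.42%. Mmp8 gave 35 UMIs in 11 Col1a1fspKO cells, 15 of them in a single cell, and 16 in 8 WT cells, a ratio of 2.12. It was 1.24 in cells thinned to 2500 UMIs and 1.12 by the mean of single-cell CPM, both under the limit. In erythroid-like cells the sum of 20 neutrophil markers was 3348 CPM in Col1a1fspKO against 1126 in WT, and in B lineage-like cells 5022 against 3786. Its part in these counts of Mmp8 and Mmp9 was not tested. In T or natural killer cell-like, plasmacytoid dendritic cell-like and basophil or eosinophil-like cells, 0 of these genes reached 50 UMIs.

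Across the clusters of both libraries, 30 points of which 15 share each library, the genes were compared by Pearson's r of log2(CPM + 10), as a description. Among the 22 genes Mmp9 was most like Mmp8 (0.93), Thbs1 (0.91), Adam8 (0.89), Mmp25 (0.85) and Timp2 (0.77). Among 6167 genes of at least 200 UMIs it was most like Slfn4, 1700047M11Rik, Scrg1, Il1rn and Ceacam10 (0.96 to 0.95). Mmp8 was most like Mmp9 (0.93), Thbs1 (0.90), Adam8 (0.83), Mmp25 (0.81) and Timp2 (0.73), and among all genes Il1rn, Mmp9, Scrg1, Clec4e and Bmx (0.94 to 0.91). For Fn1 these were Tgfbi (0.93), Plod3 (0.76), Adam15 (0.71), Plod1 (0.59) and P4hb (0.54), and among all genes Stxbp6, Ccdc109b, Aif1, F10 and F13a1 (0.97 to 0.94). For Tgfbi they were Fn1 (0.93), Plod3 (0.78), Adam15 (0.78), Plod1 (0.65) and Adam17 (0.60), and among all genes Nupr1, Fn1, Stxbp6, Ccdc109b and Csf1r (0.94 to 0.92).

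Further matrix genes outside the families were read by list. Of 25 partners of matrix proteases, 19 were in the tables and 15 could be compared, with a median log2 ratio of -0.03. Of the 15, 1 was higher, against 3.0% of all genes, and 1 lower, against 2.93%. Rnd3 was higher at 10.8 and 6.84 CPM, a ratio of 1.57 (1.12 to 2.22). Ctsg, a serine protease of early granules, was lower in Col1a1fspKO at 79.3 and 131 CPM, a ratio of 0.607 (0.551 to 0.667). Ctsg is also 1 of the 10 progenitor markers, of which it and Mpo were lower. The part of cell makeup in the ratio of Ctsg was not tested. Lcn2, which binds Mmp9, stood at 3293 and 3210.4 CPM. Of 50 other matrix proteins and growth factor binders, 16 were in the tables and 6 could be compared, with a median log2 ratio of -0.08. Of the 6, 0 were higher and 1 was lower, against the same shares of all genes. It was Spp1 (osteopontin), at 6.36 and 10.3 CPM, a ratio of 0.616 (0.432 to 0.872). Tgfb1 stood at 226 and 242 CPM.

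The other 8 metalloproteinases gave between 4 and 31 UMIs in all, too few to compare. In the order Col1a1fspKO and WT, Mmp11 gave 16 and 15 UMIs, Mmp14 6 and 14, Mmp27 8 and 10, Mmp28 11 and 9, Mmp19 6 and 6, Mmp10 6 and 4 and Mmp23 3 and 4. Mmp2, a gelatinase of stromal cells, was listed for WT alone with 4. Of the ADAMTS genes, Adamts7 gave 7 and 6 UMIs and Adamtsl5 6 and 4, while Adamts13, Adamts14 and Adamts3 gave between 3 and 5 in Col1a1fspKO alone. Adam11 gave 12 and 7 UMIs and Adam28 was listed for WT alone with 7. Col4a3bp, a ceramide transporter, with 67 and 72 UMIs, and Loxhd1, with 3 in Col1a1fspKO alone, matched by their symbols and are neither a collagen nor a lysyl oxidase.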

How the data were processed

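The authors deposited 1 table of UMI counts (genes by cells, not normalized) for each of 2 libraries of the 10x Genomics 3' v2 kit. The submitters' processing notes name Cell Ranger, Seurat and mm10. All deposited cells lay within the study's limits on genes and mitochondrial share and were used, and doublets were kept. Clusters were made in Seurat 5.3.0 (R 4.3.3) from 1977 of 2000 variable genes, with 27 principal components at resolution 0.8, leaving out the genes described, Ly6 genes and sex-linked genes. How markers name a cluster was settled after clusters had been seen, with at least 3 markers in 10% of cells, so the names may not match the study's.

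UMIs were summed per library and cell type in Python 3.11.15 (scipy 1.17.1). Levels have exact Poisson, ratios exact binomial and shares of cells Clopper-Pearson 95% intervals. Most listed genes had UMIs in 3 or more cells, and a gene missing from a table was counted as 0. In counts over all genes a library at 0 was set to 3 UMIs. A share of 0 is given with the limit that 3 cells allow. The limit was 1.5-fold with at least 50 UMIs over both libraries. The genes named were all those of the rule. The calculations were tested on simulated data. These were independent Poisson counts, the model of the intervals, so the effect of UMIs clumped in a few cells was not covered. The members and lists were chosen with earlier results of these data known.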

Additional observations from a re-analysis of the deposited data

Results flagged for a closer look

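Mmp8 was past the 1.5-fold limit in opposite directions in different clusters, each with at least 50 UMIs. Its ratio was 0.534 in the Orm1-led neutrophil cluster 1, but 2.74 in the B cell precursor cluster 3 and 2.12 in the erythroid cluster 6. The difference between clusters was not tested, since each genotype has 1 library. In cluster 1 the UMIs lay in 46 Col1a1fspKO and 67 WT cells. In cluster 3 they lay in 13 and 14 cells, with 17 of the 49 Col1a1fspKO UMIs in a single cell, and in cluster 6 in 11 and 8 cells, with 15 of 35 in a single cell. The sum of 20 neutrophil markers, in the order Col1a1fspKO and WT, was 149232 and 144063 CPM in cluster 1, 2415 and 1638 in cluster 3 and 3348 and 1126 in cluster 6, and its part in these ratios was not tested. In cluster 6, which holds the erythroid-like cells, the ratio was 1.24 in cells thinned to 2500 UMIs and 1.12 by the mean of single-cell CPM, both under the limit.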

How the results depend on the processing

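With 1 library per genotype, no replicate could be left out. No paired analysis was possible because no value comes from a test and each group has 1 library. The 3 genes higher in Col1a1fspKO over all cells became 0 at a 2-fold limit and 0 at equal class composition, and 2 to 4 in the other alternatives. The 1 lower gene became 2 at a minimum of 20 UMIs, in cells of at least 2909 UMIs, by the mean of single-cell CPM and at equal class composition, and 0 at a minimum of 200 UMIs, at a 2-fold limit and in cells thinned to 2500 UMIs, where the ratio of Adam33 was 0.447 but its UMIs fell under the minimum. The 8 calls over the lineages became 3 in thinned cells, where fewer UMIs are counted, and 6 to 9 elsewhere. The 16 genes with the same highest lineage in both libraries were 16 or 17 under the alternatives run, of which 14 to 16 kept their lineage, and Plod1 and Adam17 were those that lost it.

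The settings for the ratio at equal cluster composition were chosen after seeing the data. Integration by CCA gave 1.0 for Mmp8 and 1.16 for Mmp9. In erythroid-like cells the ratio of Col5a1 was 1.57 in thinned cells. Scrublet marked 3 Col1a1fspKO and 4 WT cells as doublets.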
